A study of Mus musculus with 24 samples.

Results

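The miR-200 family (mmu-miR-200a, mmu-miR-200b, mmu-miR-200c, mmu-miR-141 and mmu-miR-429, written here without the mmu prefix for mouse) and mmu-miR-205 were followed in the whole lung of C57BL/6 mice after birth. MicroRNAs (miRNAs) are short RNAs that pair with messenger RNAs and reduce the protein made from them. These 6 were taken by name from the 650 miRNA names on the array, and all 6 were among the 322 names tested. The lungs came from mice 1, 4, 7, 14 and 42 days old, with 5 arrays per age except 4 at day 42. All animals share 1 strain and no treatment or altered gene is named. The labels count 1 array per biological replicate, and they give the 2 later ages in weeks. The series title speaks of fetal lungs, whereas every sample label gives an age after birth, and the labelled ages were used.

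The miR-200 family is known from epithelia, where its members hold down Zeb1 and Zeb2, the transcription factors that switch off E-cadherin, and these factors in turn repress the miR-200 genes. miR-205 pairs with the same Zeb messages in cultured epithelial cells and is known above all from basal cells of stratified epithelia, skin and airways. A miRNA recognises its targets mainly through its seed, bases 2 to 8 from its 5′ end, so members with the same seed can share targets. Whole lung holds many cell types, and in such bulk tissue fewer cells of a type and less RNA per cell cannot be told apart.

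The mature sequences are printed because the members form groups by seed and by gene locus, and the results below are set against those groups. They are RefSeq's, on the mouse build GRCm38.p6, 5′ to 3′, with the seed in capitals. All 6 names matched a RefSeq entry. The names on the array carry no arm, and the main arm of each hairpin was taken, the 3p arm in the miR-200 family and the 5p arm in miR-205.
miR-200b: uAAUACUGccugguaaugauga
miR-429: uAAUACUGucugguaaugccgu
miR-200c: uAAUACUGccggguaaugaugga
miR-200a: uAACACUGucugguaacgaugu
miR-141: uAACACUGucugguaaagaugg
miR-205: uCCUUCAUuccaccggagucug

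The family has 2 seeds, and each lies at both of its loci. The seed AAUACUG belongs to the 3 members miR-200b, miR-200c and miR-429, the seed AACACUG to miR-200a and miR-141, and CCUUCAU to miR-205 alone. miR-200b (chr4:156055685-156055706), miR-200a (chr4:156054911-156054932) and miR-429 (chr4:156053916-156053937) lie in this order on the minus strand of chromosome 4, inside the non-coding gene Gm13648, with 1846 bases between the outer ends of their hairpins. miR-200c (chr6:124718324-124718346) and miR-141 (chr6:124717917-124717938) lie on the minus strand of chromosome 6 with hairpins that span 477 bases, outside annotated genes of that reference table, and the nearest coding gene, Phb2, is 969 bases from miR-141. miR-205 (chr1:193507503-193507524) lies on the minus strand of chromosome 1 inside the non-coding gene Mir205hg.

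Across the 2 loci the members include near copies. Counted from the 5′ end, miR-200a and miR-141 shared 20 of 22 positions and differed by C17A and U22G. miR-200b and miR-200c shared 20 of the 22 positions compared and differed by U11G and A22G. miR-200a and miR-200b, neighbours on chromosome 4, differed at 4 positions, C4U in the seed and U9C, C17U and U22A outside it. miR-205 matched the family members at 5 to 7 positions. Signal between near copies may be shared on an array, since how well its probes separate them was not measured here.

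Each array measured 100 ng of total RNA labelled with the dye Cy3. Levels are given as log2 of the background-subtracted spot signal, summed over the 2 probes of a member and scaled to the array's brightness, the 75th percentile of the 228 miRNA names detected on all arrays. Brightness before scaling ranged from 923 to 4954 intensity units, and 266 to 348 names were detected per array. The 6 dimmest arrays lay between 923 and 1727 units, all others at 1917 or above. They were 3 of the 5 arrays of day 1 (replicates 1, 4 and 5), 2 of the 5 of day 4 (replicates 1 and 3) and 1 of the 4 of day 42 (replicate 4). A pair of control RNAs added before labelling had median log2 signals of 12.24 and 11.28 on the 6 dimmest arrays, against 12.15 and 11.24 on the other 18, and another pair had 15.90 and 15.77, against 15.94 and 15.78. Replicate 4 of day 42 had the lowest values of all 24 arrays for the first pair, 10.40 and 9.91, where the other 18 reached down to 11.39 and 10.70. Every age was spread over all 3 slides. Since ages and brightness overlap in this way, the main calls are given also without the 6 dimmest arrays, a choice made after the data were seen.

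The miR-200 members were detected on 24 of 24 arrays and miR-205 on 23, all but replicate 2 of day 14. Age made a difference for 2 of the 6 members, miR-205 (adjusted p = 0.00348) and miR-200a (adjusted p = 0.0350), in a limma F-test over the 5 ages, against 65.5% of all 322 names. The 4 others had adjusted p-values of 0.0845 (miR-200b), 0.153 (miR-200c), 0.269 (miR-141) and 0.380 (miR-429). Without the 6 dimmest arrays the F-test called miR-200a (adjusted p = 0.00984) and miR-200b (adjusted p = 0.0280) but not miR-205 (adjusted p = 0.134), beside 72.7% of all names. At day 42 against day 1, miR-200a was higher and miR-205 lower, and the count of 2 of 6 stands beside 61.8% of all names. The median change was 0.14 log2 units over the 6 members and -0.35 over all 322 names.

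**Figure D1:**
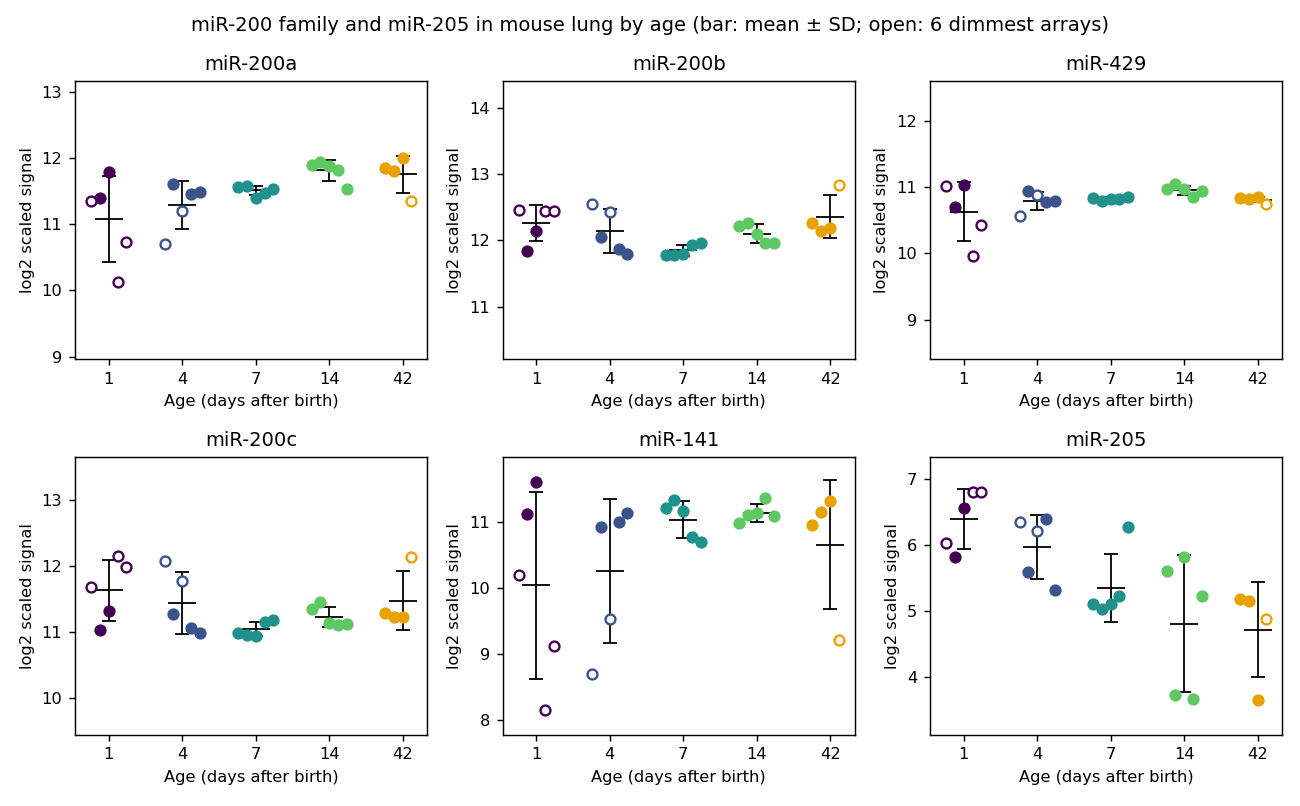
Log2 scaled signal (y axis) of each member on the 24 arrays by age in days (x axis). Points are arrays, open for the 6 dimmest, and bars are the mean ± SD, with 5 arrays per age and 4 at day 42. miR-205 lies at 5.81 to 6.80 at day 1 and at 3.66 to 5.19 at day 42, and the open points of miR-141 lie at 8.16 to 10.20, below all filled ones.

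In the scaled values of the reported fit miR-205 fell with age by about 3-fold, and by less in several other settings given below. Before scaling its signal was low and the ages overlapped. It was 45.5 to 91.3 units at day 1, 13.6 to 124 at day 14 and 21.8 to 65.6 at day 42. At day 1 its log2 levels were 6.02, 5.81, 6.56, 6.79 and 6.80, and at day 4 they were 6.34, 5.59, 6.21, 6.39 and 5.32. At day 7 they were 5.11, 5.03, 5.11, 5.23 and 6.27, with replicate 5 standing above the other 4. At day 14 they were 5.61, 3.73, 5.81, 3.67 and 5.23, and at day 42 they were 5.19, 5.15, 3.66 and 4.88. All arrays of day 42 lay below day 1, and the highest of day 14, replicate 3, came just under the lowest of day 1, replicate 2, with the same rounded value.

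The mean level of miR-205 was 6.40 ± 0.45 at day 1 and 5.97 ± 0.49 at day 4 (SD, n = 5). The day 7 arrays averaged 5.35 ± 0.52 and those of day 14 averaged 4.81 ± 1.03 (SD, n = 5), with 4.72 ± 0.72 at day 42 (SD, n = 4). At day 42 against day 1 the change was -1.68 ± 0.43 log2 units, 3.20-fold lower (limma, adjusted p = 0.00165). At day 14 against day 1 it was -1.59 ± 0.40, 3.01-fold lower (limma, adjusted p = 0.00215), where 53.7% of all names were called. In the scaled values the arrays of both comparisons did not overlap, as in 39.8% of all names for day 42 and 35.4% for day 14. No step between neighbouring ages passed the test. The changes were -0.43 at day 4 against day 1, -0.62 at day 7 against day 4, -0.54 at day 14 against day 7 and -0.09 at day 42 against day 14, with adjusted p of 0.362 to 0.917 in limma. Day 42 and day 14 were also lower than day 4, with changes of -1.25 (limma, adjusted p = 0.0155) and -1.16 (limma, adjusted p = 0.0258), where 59.6% and 39.4% of names were called, and both calls were lost without the 6 dimmest arrays (-1.10 and -0.96, adjusted p of 0.105 and 0.136). Both were lost as well with normexp (another background correction), the percentile over all names, quantile normalization, no scaling and the deposited values, with changes of -0.71 to -0.27 at day 42 and -0.82 to -0.10 at day 14 (limma, adjusted p of 0.226 to 0.605 and 0.105 to 0.973). The day 42 call was lost without replicate 3 of day 42 (-0.90), and the day 14 call without replicate 2 or 4 of day 14 (-0.89 and -0.88) or replicate 1, 3 or 4 of day 4 (-1.07, -1.10 and -1.06).

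miR-205 was lower on each slide, by amounts that differed. The day 42 minus day 1 difference was -1.26, -1.39 and -1.80 on slides 1, 2 and 3, and the day 14 minus day 1 difference was -1.77, -2.08 and -1.16, each from 1 or 2 arrays per age, and on slide 2 the day 14 value sets 1 array against 1. Its 2 probes gave -1.77 and -1.63 at day 42 against day 1. Without the 6 dimmest arrays that change was -1.52 (limma, adjusted p = 0.0471), and at day 14 it was -1.37 (limma, adjusted p = 0.0639). The call at day 42 was lost without scaling (-0.67, adjusted p = 0.212), with quantile normalization (-0.65, adjusted p = 0.199) and in the authors' deposited log2 values (-0.58, adjusted p = 0.256). The call at day 14 was lost without scaling (-0.50, adjusted p = 0.312) and with normexp (-0.94, adjusted p = 0.196).

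Before scaling miR-205 had 13.6 to 124 intensity units on the 24 arrays, the lowest value being that of the array on which it was not detected. The array also carries names of mouse herpesviruses, and 1 of the 3 that were tested, mghv-miR-M1-2, changed by -1.02 at day 42 against day 1 (limma, adjusted p = 0.0072) and by -1.08 at day 14 (limma, adjusted p = 0.00391). A second, mcmv-miR-M23-1-5p, changed by -0.48 at day 14 (limma, adjusted p = 0.0204), so that 2 of the 3 were called there. Without the 6 dimmest arrays mghv-miR-M1-2 changed by -0.74 at day 42 (limma, adjusted p = 0.0165), and its day 14 change of -0.57 and that of mcmv-miR-M23-1-5p (-0.37) were not called (adjusted p of 0.0530 and 0.109). With brightness in the fit none of the 3 was called at either age. Their part in the miR-205 result was not tested. Against the median change of all names, which moves with the scaling, miR-205 was lower at day 42 by -1.32 log2 units in the reported fit, -1.31 without scaling, -1.03 without the 6 dimmest arrays, -0.89 in the deposited values, -0.84 with quantile normalization and -0.37 with normexp.

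miR-200a was higher at the 2 later ages. At day 1 its log2 levels were 11.35, 11.39, 11.79, 10.12 and 10.73, and at day 4 they were 10.70, 11.60, 11.20, 11.45 and 11.49. The lowest arrays of both ages were among the 6 dimmest. At day 7 its levels were 11.56, 11.58, 11.40, 11.47 and 11.54, at day 14 they were 11.89, 11.94, 11.87, 11.81 and 11.54, and at day 42 they were 11.85, 11.81, 12.00 and 11.35. Day 42 overlapped with day 1, since replicate 4 of day 42 lay as low as replicate 1 of day 1.

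In the limma fit miR-200a was 0.68 ± 0.24 log2 units higher at day 42 than at day 1, 1.60-fold (adjusted p = 0.0187), and 0.73 ± 0.23 higher at day 14, 1.66-fold (adjusted p = 0.00947). The means were 11.75 ± 0.28 at day 42 (SD, n = 4), 11.81 ± 0.16 at day 14 and 11.08 ± 0.65 at day 1 (SD, n = 5). No step between neighbouring ages passed the test in this fit, with adjusted p of 0.37 to 0.894. Within slides the day 42 minus day 1 difference was 1.07, 0.54 and 0.09. The call at day 42 was lost without the 6 dimmest arrays (0.30, limma adjusted p = 0.0565), with brightness as a covariate (0.05, limma adjusted p = 0.848), and without replicate 4 of day 1 (0.44), replicate 5 of day 1 (0.59) or replicate 3 of day 42 (0.59), with limma adjusted p of 0.0632, 0.0506 and 0.0606 for these 3. The call at day 14 was lost without the 6 dimmest arrays (0.22, limma adjusted p = 0.139) and with the covariate (0.05, limma adjusted p = 0.883).

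Among the 18 brighter arrays, where the spread was smaller, miR-200a and miR-200b differed between the later and the middle ages. miR-200a was 0.30 ± 0.09 log2 units higher at day 14 than at day 7 (limma, adjusted p = 0.0118) and 0.38 ± 0.11 higher at day 42 than at day 7 (adjusted p = 0.0046, where 71.4% of names were called). miR-200b was 0.25 ± 0.09 higher at day 14 than at day 7 (limma, adjusted p = 0.0248) and 0.35 ± 0.10 higher at day 42 (adjusted p = 0.0051). All arrays of day 7 and day 14 are among these 18, so both fits hold the same day 14 minus day 7 difference. In the fit over all 24 arrays that difference did not pass the test for any member (adjusted p = 0.276 for miR-200b and 0.37 for miR-200a), beside 31.4% of all names called. Without the dimmest arrays 52.8% of all names were called in the same comparison.

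miR-200b carries the other seed and is the neighbour of miR-200a on chromosome 4. Its log2 levels were 12.46, 11.84, 12.14, 12.45 and 12.44 at day 1, 12.56, 12.06, 12.43, 11.87 and 11.80 at day 4, and 11.78, 11.79, 11.79, 11.93 and 11.96 at day 7. They were 12.22, 12.27, 12.09, 11.96 and 11.95 at day 14, and 12.27, 12.14, 12.19 and 12.84 at day 42. The 6 highest values of the series are those of the 6 dimmest arrays. At day 42 against day 1 the change was 0.09 ± 0.17 (limma, adjusted p = 0.645, 95% confidence interval -0.26 to 0.45). Day 42 was 0.51 ± 0.17 above day 7 with no overlap (limma, adjusted p = 0.0148), a comparison in which 57.8% of all names were called and 51.9% did not overlap. This call was lost without replicate 4 of day 42 (0.35, limma adjusted p = 0.0787) and with normexp (0.50, limma adjusted p = 0.0781).

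miR-200c, with the seed of miR-200b but on chromosome 6, ran close to miR-200b. Its log2 levels were 11.68, 11.04, 11.32, 12.15 and 11.98 at day 1, 12.08, 11.27, 11.77, 11.06 and 10.99 at day 4, and 10.99, 10.96, 10.95, 11.15 and 11.18 at day 7. They were 11.34, 11.45, 11.14, 11.11 and 11.12 at day 14, and 11.29, 11.22, 11.23 and 12.14 at day 42. Here too the 6 highest values are those of the 6 dimmest arrays, and replicate 4 of day 42 stands apart from the other 3 arrays of its age. The change at day 42 against day 1 was -0.16 ± 0.24 (limma, adjusted p = 0.569, 95% confidence interval -0.65 to 0.33).

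miR-141, the partner of miR-200c on chromosome 6 with the seed of miR-200a, had the widest spread of the 6 members, 3.45 log2 units over the 24 arrays. Its levels were 10.20, 11.11, 11.61, 8.16 and 9.12 at day 1, 8.70, 10.92, 9.54, 11.00 and 11.14 at day 4, and 11.22, 11.33, 11.16, 10.77 and 10.69 at day 7. They were 10.98, 11.11, 11.13, 11.35 and 11.08 at day 14, and 10.96, 11.14, 11.31 and 9.21 at day 42. The 6 lowest values are those of the 6 dimmest arrays, the reverse of miR-200b and miR-200c. The day 42 minus day 1 change of 0.62 ± 0.57 lay within this spread (limma, adjusted p = 0.356, 95% confidence interval -0.57 to 1.81), and the day 14 minus day 1 change was 1.09 ± 0.54 (limma, adjusted p = 0.0906).

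miR-429, the third member on chromosome 4, had the smallest SD of the 6 members over all arrays, 0.23, and at day 7 its arrays spanned 0.05. Its levels were 11.02, 10.71, 11.03, 9.96 and 10.44 at day 1, 10.57, 10.94, 10.88, 10.78 and 10.79 at day 4, and 10.84, 10.79, 10.82, 10.82 and 10.85 at day 7. They were 10.97, 11.04, 10.97, 10.85 and 10.94 at day 14, and 10.83, 10.82, 10.85 and 10.75 at day 42. The change was 0.18 ± 0.16 at day 42 against day 1 (limma, adjusted p = 0.318) and 0.32 ± 0.15 at day 14 against day 1 (limma, adjusted p = 0.0695).

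In the other steps 0 of 6 members passed the test. At day 7 against day 1, where 15.8% of all names were called, miR-200b changed by -0.42 and miR-200c by -0.59 with adjusted p of 0.0748 and 0.0701 (limma), and miR-205 by -1.05 with 0.0716, so that 3 members had an unadjusted p under 0.05. Leaving out replicate 2 of day 1 brought these 3 under the threshold, at -0.52, -0.74 and -1.19. Leaving out replicate 3 of day 1 did so for miR-200c (-0.67) and for miR-200a (0.61), leaving out replicate 4 of day 42 for miR-200b and miR-200c with changes as above, and leaving out replicate 5 of day 7 for miR-205 (-1.28). At day 4 against day 1, day 7 against day 4 and day 42 against day 14, where 1.55%, 0.311% and 32.6% of all names were called, 0 members had an unadjusted p under 0.05, as at day 14 against day 7. At day 14 against day 1 the call of miR-141 appeared without replicate 2 or 3 of day 1 (1.36 and 1.49), that of miR-200c without replicate 2 (-0.55), and that of miR-429 without replicate 1 or 3 (0.42 in both).

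The scaled levels of the members moved with array brightness in opposite directions. Levels are divided by brightness, so a slope below 0 means a signal that rose less than brightness did, or fell. Before scaling, miR-200b had 2292 units on the dimmest array (replicate 4 of day 1) and 9631 on the brightest (replicate 3 of day 14). On the same arrays miR-200c had 1866 and 4965 units. In the limma fit with age and log2 brightness, miR-141 was higher by 1.75 ± 0.23 log2 units per doubling of brightness (adjusted p = 1.98e-06) and miR-200a by 0.62 ± 0.12 (adjusted p = 0.000166), the 2 members with the seed AACACUG. miR-200c changed by -0.70 ± 0.10 (adjusted p = 3.36e-06) and miR-200b by -0.44 ± 0.09 (adjusted p = 0.000176). miR-429, which shares their seed, was higher by 0.25 ± 0.10 (adjusted p = 0.0311), and miR-205 changed by -0.25 ± 0.32 (adjusted p = 0.493). So 5 of 6 members had a slope, and so did 66.8% of all 322 names.

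These directions did not follow the locus. miR-200a and miR-429 ran against their neighbour miR-200b on chromosome 4, and miR-141 ran against miR-200c on chromosome 6. They followed the seed except in miR-429. The differences C9U between miR-200b and miR-429, C9U between miR-200c and miR-141 and U9C between miR-200a and miR-200b divide the family in the same way as the sign of the slope. This is a description of 5 sequences, read beside slopes already known. Whether this base bears on the slope was not tested, and 66.8% of all 322 names had a slope.

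**Figure D2:**
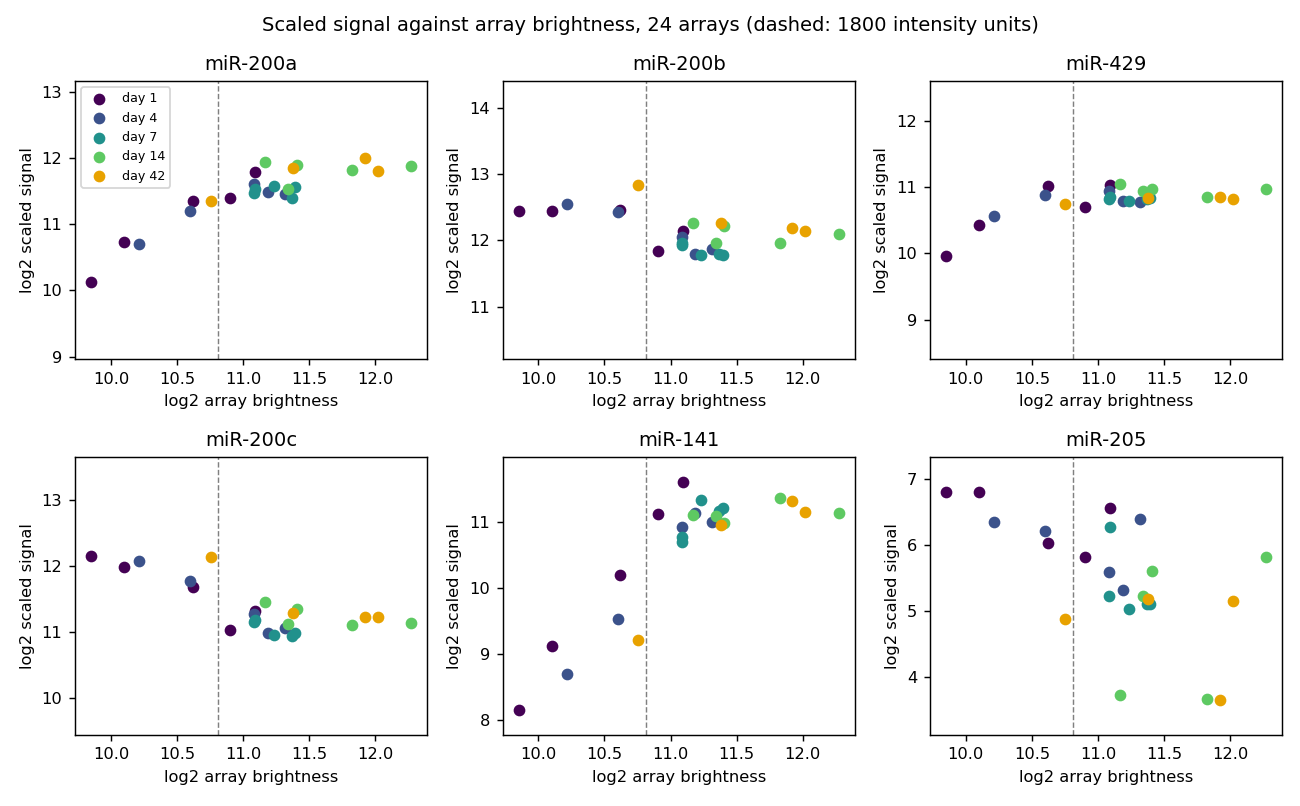
Log2 scaled signal (y axis) of each member against log2 array brightness (x axis), 1 point per array, coloured by age, with a dashed line at 1800 intensity units. Left of the line miR-141 lies at 8.16 to 10.20 and miR-200c at 11.68 to 12.15, and right of it at 10.69 to 11.61 and 10.95 to 11.45.

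The ranges on either side of 1800 units describe the members only, since how many of all names were split in the same way was not counted. On the 6 dimmest arrays miR-141 lay at 8.16 to 10.20 and miR-200a at 10.12 to 11.35, against 10.69 to 11.61 and 11.39 to 12.00 on the other 18 arrays. miR-200b lay at 12.43 to 12.84 and miR-200c at 11.68 to 12.15 on the 6 dimmest arrays, against 11.78 to 12.27 and 10.95 to 11.45 on the others. miR-429 and miR-205 overlapped, with 9.96 to 11.02 and 4.88 to 6.80 on the 6 dimmest arrays, against 10.71 to 11.04 and 3.66 to 6.56. These arrays were split by brightness and not by age, so the ranges are given without a test.

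With brightness in the fit, the differences between day 42 and day 1 became others. miR-200b was 0.53 ± 0.14 log2 units higher (limma, adjusted p = 0.00271), miR-200c 0.54 ± 0.16 higher (adjusted p = 0.00566) and miR-141 changed by -1.14 ± 0.38 (adjusted p = 0.0124). miR-205 was lower in that fit as well, by -1.42 ± 0.54 (limma, adjusted p = 0.0256), and miR-200a and miR-429 changed by 0.05 and -0.07. That is 4 of 6 members called, beside 63.4% of all names. Without the 6 dimmest arrays none of these 3 calls of miR-200b, miR-200c and miR-141 was made, with changes of 0.21, 0.07 and -0.22 (limma, adjusted p of 0.148, 0.636 and 0.316), and 1 of 6 members, miR-205, was called beside 68.9% of all names.

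**Figure D3:**
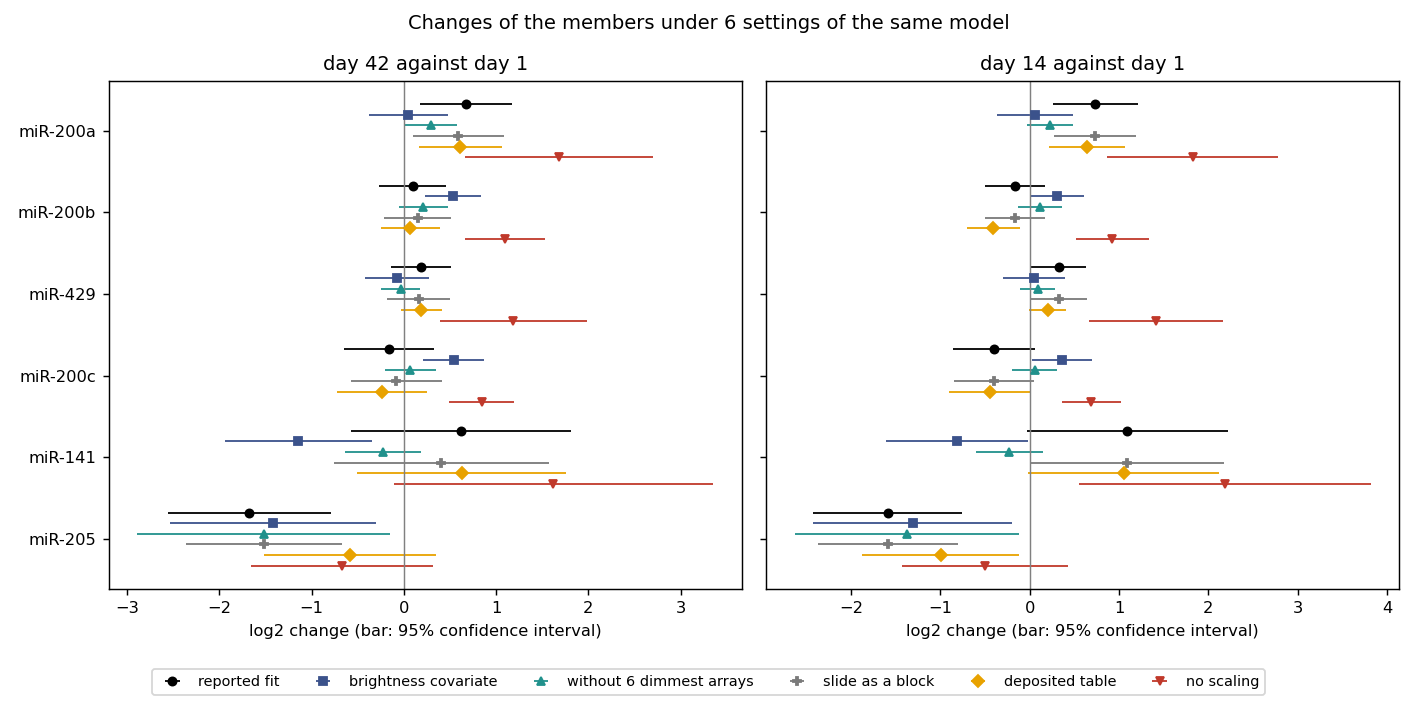
Log2 change of each member at day 42 (left) and day 14 (right) against day 1, with 95% confidence intervals, in the reported fit and under 5 other settings of the same model. The interval of miR-205 lies below 0 at day 42 in 4 settings and spans 0 without scaling and in the deposited table, and miR-141 and miR-200c change sign between settings.

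Differences between 2 members on the same array do not depend on a scaling by 1 factor per array, though quantile normalization changes them. The size of such a difference also reflects the probes, so that only its change between arrays is read here. miR-141 minus miR-200c, neighbours on chromosome 6, lay between -3.99 and -1.49 on the 6 dimmest arrays and between -0.48 and 0.37 on the 18 brighter ones. miR-200a minus miR-200b, neighbours on chromosome 4, lay between -2.32 and -1.11 on the dimmest arrays and between -0.46 and -0.15 on the brighter ones. miR-200b minus miR-200c, with 1 seed at 2 loci, lay at 0.30 to 0.78 on the dimmest arrays and at 0.78 to 0.98 on the brighter ones.

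**Figure D4:**
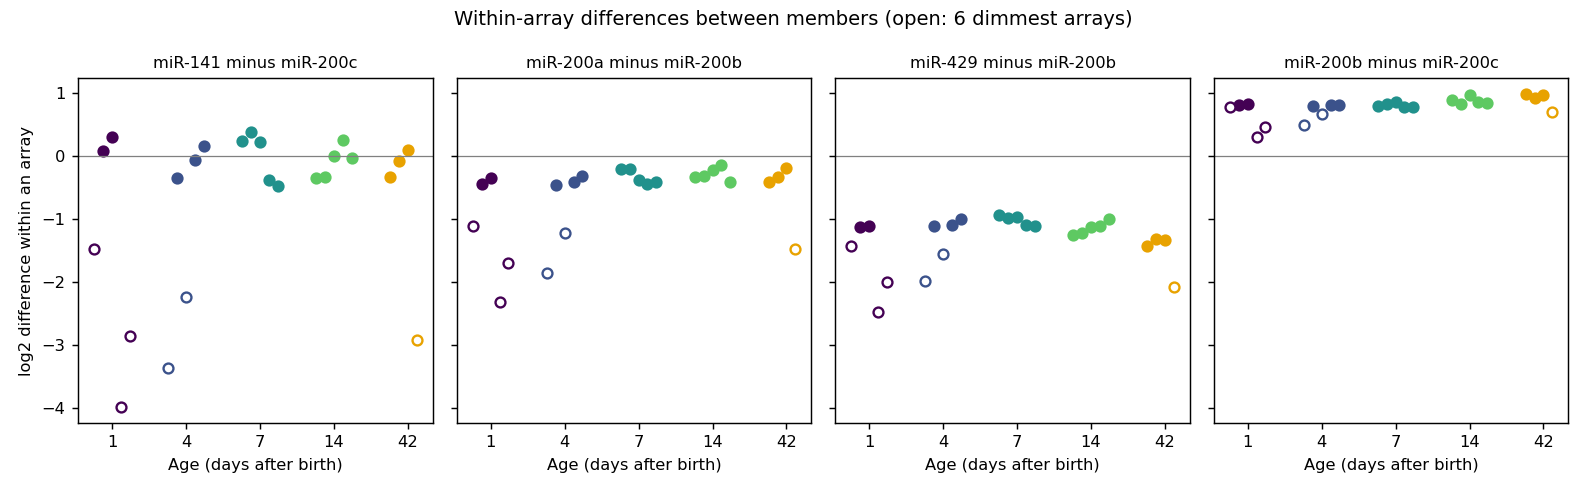
Within-array log2 difference (y axis) of 4 pairs of members by age in days (x axis), 1 point per array, open for the 6 dimmest arrays. The open points of miR-141 minus miR-200c lie at -3.99 to -1.49 and the filled ones at -0.48 to 0.37. Open points occur at days 1, 4 and 42 only.

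Between ages 6 such pairs were compared in 3 comparisons each, 18 tests in all, and none passed after Benjamini-Hochberg adjustment (exact permutation tests over arrays, two-sided, lowest adjusted p = 0.0714). The smallest p these designs allow is 0.00794. It was reached by miR-205 minus miR-200c at day 42 against day 1, with a mean of -6.75 ± 0.78 at day 42 and -5.24 ± 0.32 at day 1 (SD, n = 4 and 5), a change of -1.51 (exact p = 0.00794). That change was -1.59 without the 6 dimmest arrays, where the arrays left allow no exact p under 0.1, so that no call was possible. With normexp the change was -1.45, and it was -0.34 both in the deposited values and with quantile normalization. Adjusted p was 0.0952 to 0.505 in these other settings (exact permutation tests). The smallest p of 0.00794 was reached as well by miR-429 minus miR-200b at day 42 against day 14. Means were -1.55 ± 0.36 at day 42 and -1.14 ± 0.10 at day 14 (SD), a change of -0.40 (exact p = 0.00794, n = 4 and 5). Replicate 4 of day 42, among the 6 dimmest arrays, lay at -2.08, and the other arrays of day 42 at -1.44 to -1.33. Without the 6 dimmest arrays the change was -0.22 (exact permutation test, adjusted p = 0.225). It was -0.41 with normexp and -0.49 both in the deposited values and with quantile normalization. In all 5 of the 18 tests had an unadjusted p under 0.05, and 3 were called without replicate 3 of day 1. These were miR-429 minus miR-200b at day 42 against day 14 and, at day 14 against day 1, miR-200a minus miR-200b and miR-200b minus miR-200c. The first uses no day 1 array, so its change stayed -0.40 and only the adjustment differed. Without the 6 dimmest arrays the pairs at day 14 against day 1 changed by 0.11 and 0.06, against 0.90 and 0.24 over all arrays. Even the exact permutation tests that reached the smallest p had an adjusted p of 0.0714, since few arrays and 18 tests leave little room below it. The absence of a call therefore does not show that the pairs were unchanged.

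Taken over all 24 arrays, members correlated positively where their slopes on brightness had the same sign and negatively where they did not. Pearson's r was 0.93 between miR-200b and miR-200c and 0.88 between miR-200a and miR-141, and it was -0.92 between miR-141 and miR-200c. miR-429 had an r of 0.86 with miR-200a and 0.74 with miR-141, against -0.27 with miR-200b and -0.53 with miR-200c, whose seed it shares. Over the 18 brighter arrays r was 0.93 between miR-200b and miR-200c and 0.87 between miR-200a and miR-200b. It was 0.31 between miR-200a and miR-141 and -0.10 between miR-141 and miR-200c. The negative values of miR-429 were not seen there, with r of 0.63 with miR-200b and 0.71 with miR-200c. With miR-200a its r was 0.59 and with miR-141 it was 0.17. These values describe arrays that share ages, slides and brightness.

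The minor arms of the hairpins are the strands that are mostly discarded, and 3 of the 4 on the array were tested. miR-200b* (chr4:156055721-156055742, minus strand of GRCm38.p6) is shown because it ran closest to 2 members, again with its seed in capitals.
miR-200b*: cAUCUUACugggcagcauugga

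miR-200b* had an r of 0.94 with miR-200b and 0.98 with miR-200c over the 24 arrays, and 0.93 and 0.89 over the 18 brighter ones. It is made from the hairpin of miR-200b, on another chromosome than miR-200c. Its slope on log2 brightness was -0.75 ± 0.11 (limma, adjusted p = 8.12e-06), in the direction of both. miR-200a* and miR-141* had slopes of -0.11 ± 0.12 and 0.12 ± 0.09 (limma, adjusted p of 0.394 and 0.249), against 0.62 and 1.75 for the main arms of the same hairpins. miR-200a* was not detected on replicates 4 and 5 of day 1 and replicate 1 of day 4, with 15.4 to 19.5 units before scaling. miR-141* was not detected on replicate 4 of day 1 and replicate 1 of day 4, with 13.8 and 15.9 units. These arrays are among the 6 dimmest, so both slopes rest in part on undetected signal and the contrast with the main arms is limited. At day 42 against day 1 the changes were 0.09 ± 0.16 for miR-200a*, -0.02 ± 0.26 for miR-200b* and 0.13 ± 0.13 for miR-141*, and 0 of 3 were called. miR-200c* was detected on no array.

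By likeness over the 24 arrays, all 18 entries nearest to a member, 3 for each, had a slope on brightness of the same sign as that member, where 39.1% of all 322 names had a slope above 0 and 60.9% one below 0. The likeness was measured over the same arrays as the slope, so the shared sign is a description. For miR-205 (-0.25 ± 0.32) and 1 of its nearest entries, miR-539 (-0.17 ± 0.18), the slope was smaller than its standard error, so these signs are not settled. miR-219, miR-362-3p and miR-32 were nearest to miR-141 (r of 0.98, 0.97 and 0.96), with slopes of 1.86, 1.01 and 2.80, and r was 0.63, 0.63 and 0.80 over the 18 brighter arrays. miR-27a, miR-101b and miR-24-2* were nearest to miR-200a (r of 0.97, 0.97 and 0.96, and 0.85, 0.87 and 0.84 over the brighter arrays). For miR-200b, miR-425 and miR-374 came after miR-200b* (r of 0.91 and 0.86), and for miR-200c, miR-423-5p and miR-1224 did (r of 0.95 and 0.93). miR-34a, miR-467e and miR-27b were nearest to miR-429 (r of 0.94, 0.88 and 0.84). miR-204, miR-539 and miR-543 were nearest to miR-205, with lower r of 0.83, 0.77 and 0.76, and 0.74, 0.69 and 0.63 over the brighter arrays.

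Other miRNAs known from epithelia changed in both directions between day 42 and day 1. Of the 8 tested of 10 listed, 4 were higher and 2 lower, with a median change of 0.59 log2 units against -0.35 for all names, beside 18.9% of all names called higher and 42.9% called lower. miR-192 and miR-194, a pair made from shared transcripts, were 0.93 ± 0.16 and 0.78 ± 0.13 higher (limma, adjusted p of 3.14e-05 and 2.94e-05), with means of 7.89 and 7.64 at day 42, against 6.96 and 6.86 at day 1. miR-182 and miR-183, from 1 cluster, changed by -0.76 ± 0.16 and -0.44 ± 0.15 (limma, adjusted p of 0.000216 and 0.0179), with means of 5.85 and 6.90 at day 42, against 6.61 and 7.34 at day 1. Without the 6 dimmest arrays all 4 were called in the same direction, at 0.70, 0.57, -0.72 and -0.47 (limma, adjusted p of 0.000781, 0.0023, 0.000287 and 0.0100). In that fit 5 of the 8 were higher and 3 lower, beside 68.9% of all names called in either direction. With brightness in the fit miR-183 was not called (-0.16, limma adjusted p = 0.409). At day 14 against day 7, 3 of the 8 were higher (miR-192, miR-194 and miR-31, by 0.57 to 0.60), where 7.45% of all names were called higher. miR-96, of the miR-182 cluster, had a slope on brightness of 1.13 ± 0.16, between those of miR-200a and miR-141.

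**Figure D5:**
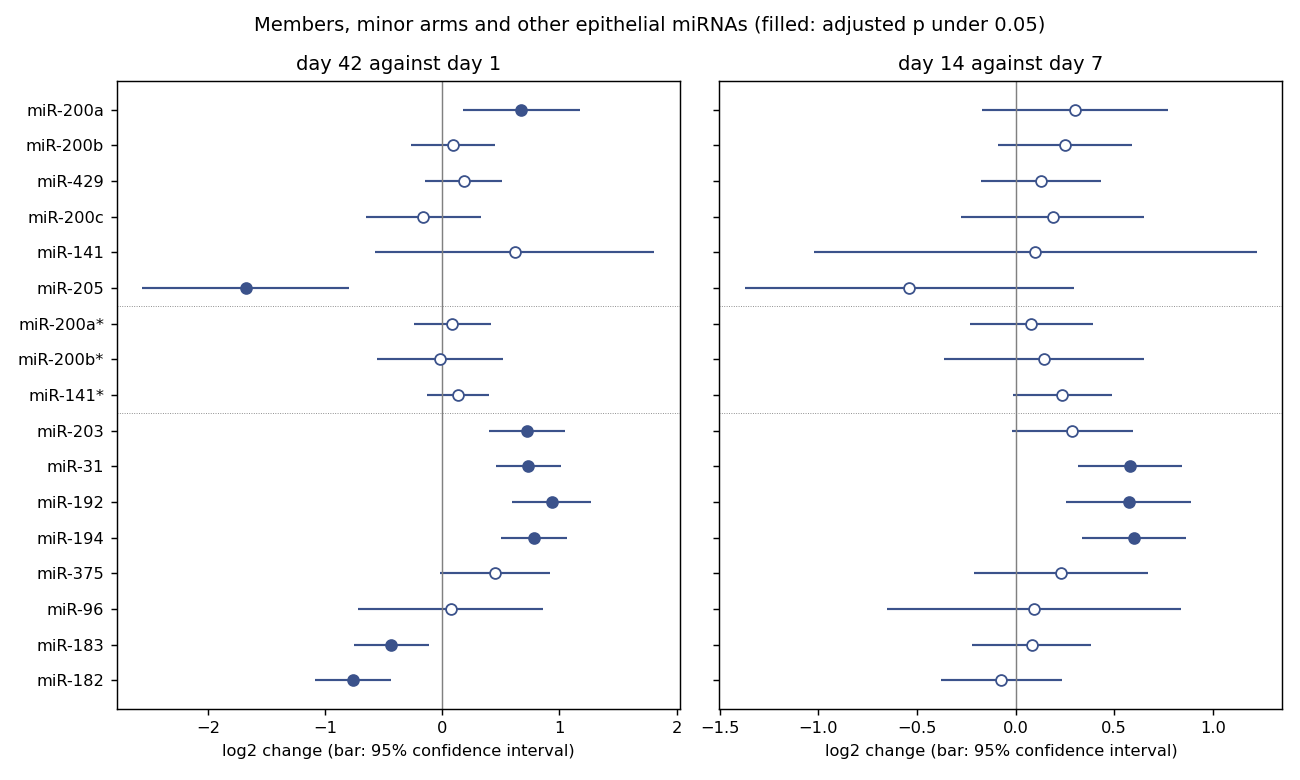
Log2 change (x axis) with its 95% confidence interval at day 42 against day 1 (left) and day 14 against day 7 (right) for the 6 members, 3 minor arms and 8 other epithelial miRNAs, filled where the adjusted p was under 0.05. At day 42 miR-200a, miR-203, miR-31, miR-192 and miR-194 are filled above 0 and miR-205, miR-182 and miR-183 below it.

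Markers of other lung cells moved between the same ages, beside the 18.9% of all names called higher and 42.9% called lower. Of 6 leukocyte miRNAs, 6 were higher at day 42 than at day 1 (5 with brightness in the fit), and their summed log2 level was 13.63 to 13.95 at day 42, against 12.28 to 13.07 at day 1. Of 5 miRNAs of mesenchyme and smooth muscle 3 were lower, with sums of 13.55 to 13.85 at day 42, against 14.20 to 14.61 at day 1, and of 4 endothelial ones 3 were higher, with sums of 15.95 to 16.39 at day 42, against 15.02 to 15.62 at day 1. Of 6 tested miRNAs of multiciliated cells 4 were higher and 2 lower, of 4 of striated muscle 0 were higher and 1 lower, and of 3 of red blood cells 0 were called. Without the 6 dimmest arrays 68.9% of all names were called in either direction. In that fit 6 leukocyte and 2 endothelial miRNAs were higher and 4 of mesenchyme and smooth muscle lower, with the same counts as above for the other 3 lists. The part of these shifts in the values of the members was not tested. The members themselves summed to 13.83 to 14.03 at day 42, against 13.60 to 13.96 at day 1.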

How the data were processed

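Total RNA of 24 whole mouse lungs was hybridised to 1-colour arrays, 1 array per animal sample, grouped by the age in the labels. Per the file headers, the deposited array files hold spot intensity values from Agilent Feature Extraction 10.7.1.1 (also named in the submitters' processing notes), background-subtracted by the authors' software and not adjusted between arrays. A deposited log2 table of the series holds 672 names with an equal median of 2.41 in every column, and follows the log2 total signal of each array with a slope of 0.893 to 1.08. How the authors made it is not given in the sources used here, and its columns served as an alternative.

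Spot signals were averaged per probe without outlier spots (319 to 523 per array), probes summed per miRNA, and each array divided by the 75th percentile of the 228 names detected on all arrays and multiplied by a common factor. Values under 7.24 were set to that floor (log2 2.86). Tests covered the 322 names that carry the deposited detection flag on all arrays of some age. They used limma 3.58.1 (R 4.3.3) in 1 fit with 5 ages and 19 residual degrees of freedom, two-sided, with Benjamini-Hochberg adjustment over all 322 and a threshold of 0.05. Errors are standard errors of the fit unless SD is named. The number of arrays limits the precision, and p-values measure the spread between these arrays. The code was tested on simulated data. Other computations used Python 3.11.15.

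The members and lists were chosen with earlier results of these data known. Named beside the members are their minor arms, the 2 largest called rises and falls of the other epithelial miRNAs, and the 3 names most correlated with each member over the 24 arrays (miR-31 and miR-96 were named after their values were seen). Alternatives were other background corrections, scalings and filters, the deposited table, brightness, slide or replicate number in the fit, and each array left out. Normexp used the median spot signal, with an offset of 50. Leaving out the 6 arrays under 1800 units, and quantile normalization for pairs of members, were added after the data were seen. Replicate numbers did not pair arrays (median correlation -0.022 over 46 pairs of the same number).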

Additional observations from a re-analysis of the deposited data

Results flagged for a closer look

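Among 30 groups of 1 member at 1 age, 3 arrays stood far from the rest of their age, and chance alone flags about 1 in 20 groups. miR-200c was 12.14 on replicate 4 of day 42, above the other 3 arrays at 11.22 to 11.29. miR-141 was 9.21 on the same array, below the others at 10.96 to 11.31. This array is the dimmest of day 42, at 1727 units. miR-205 was 6.27 on replicate 5 of day 7, above the other 4 at 5.03 to 5.23, and that array was not among the 6 dimmest, at 2176 units.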

How the results depend on the processing

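The number of members called by the F-test was 2, and it was 1 with normexp, quantile normalization, no filter on dim names and only names detected on all arrays (a set without miR-205), and 4 with the percentile over all names, median scaling and no scaling. At day 42 against day 1 it was 2, against 4 with the percentile over all names, no scaling and the brightness covariate, and 1 with quantile normalization, the deposited table, only names detected on all arrays and without the 6 dimmest arrays. At day 14 against day 1 it was 2, against 1 with normexp, only names detected on all arrays and the covariate, 4 with the percentile over all names, 5 without scaling and 0 without the 6 dimmest arrays. Counts of 0 became 2 with quantile normalization and the deposited table and 1 without scaling at day 7 against day 1, 3 with the percentile over all names and 2 without scaling, with the covariate and without the 6 dimmest arrays at day 14 against day 7, and 1 with the percentile over all names, quantile normalization and the deposited table at day 42 against day 14. Scalings moved the median change of all names at day 42 against day 1 between -1.17 and 0.64, and without scaling it was 0.89 at day 14 against day 1. The counts above stand here without the share of all names called in each setting, so they are not read as a result about the members. Directions of members turned in 19 cases at day 42 or day 14 against day 1. Called in the turned direction were miR-200c at day 42 (0.84 without scaling, 0.54 with the covariate), miR-141 there (-1.14 with the covariate), and without scaling at day 14 miR-200b (0.92) and miR-200c (0.69). The other 14 were called neither way, among them miR-141 at day 14 (-0.82 with the covariate, -0.23 without the 6 dimmest arrays), miR-200b and miR-200c at day 14 (0.31 and 0.36 with the covariate) and miR-200c at day 42 (0.50 with the percentile over all names, 0.21 with median scaling); the cause was not tested. Leaving out 1 array at a time gave 1 to 3 members by the F-test, 1 to 2 at day 42 and 2 to 4 at day 14 against day 1, 0 to 3 at day 7 against day 1, 0 in the other steps, and 0 to 3 pair differences. A fit with the replicate number as a block, which does not pair these arrays, gave 2 members at day 42 against day 1 and changed no count by more than 1.5 times.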
